A study of Mus musculus with 4 samples.

Results

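C1q-high macrophages are macrophages of mouse brain tumours that carried transcripts of complement C1q and few transcripts of 4 genes of other monocyte and macrophage states. The members were chosen by measured UMI counts, so the levels of the genes in this paragraph are a description. A barcode counted when it had at least 200 genes, at most 10% mitochondrial UMIs and at least 5 UMIs of Lyz2, Csf1r and Cd68 together. It had at most 1 UMI of the microglial genes P2ry12, Tmem119 and Sall1, at most 1 UMI of Cd3d, Cd3e and Cd3g, and none of Flt3 or Retnlg. Caps allowed under 2 UMIs of Nos2, under 2 of Retnla, under 3 of Arg1 and under 3 of Ly6c2. C1qa, C1qb and C1qc together had to reach 6 UMIs. In all, 2783 of 28661 barcodes were members.

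The data were droplet single-cell RNA counts of live (7-AAD-) CD45.2+ immune cells sorted from brains bearing GL261, a mouse glioma line. The labels give brain as tissue and source, while the protocol in one place calls the sorted cells lung immune cells. KO animals were IFNaR-/- and lack the receptor of type I interferons, and WT animals were wild type. KO and WT were each sampled without treatment on day 20. KO and WT were also sampled on day 25 after anti-PD1, a checkpoint-blocking antibody against PD-1 on T cells, given at 200 ug per mouse on days 7, 11, 15 and 19. All animals carried tumours, and in the anti-PD1 groups sorted CD3+ and CD3- cells were recombined in equal parts. Suspensions were pooled, with the count of animals not stated, and each of the 4 groups had 1 library. No difference below therefore has a replicate check, and none was tested. The labels do not say which part of the receptor gene is deleted.

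C1q is built from 3 chains, encoded by C1qa, C1qb and C1qc. It starts the classical complement pathway by binding antibody complexes and also marks dying cells for uptake. Tissue macrophages and microglia are its main sources, whereas monocytes newly arrived from blood carry little. Type I interferons act through IFNAR1 and IFNAR2 on transcription factors that bind response elements in the promoters of interferon-stimulated genes.

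Libraries held 3705 to 9530 barcodes and 32410040 to 94732545 UMIs, and 26014 barcodes passed the cell filter. Median depth of the members was 10159 UMIs in KO and 6577 in WT untreated, and 4598 in KO and 6515 in WT after anti-PD1. Free RNA was judged from T cells, which do not make C1q. At least 1 C1q UMI was found in 59.9% of KO and 71.6% of WT T cells after anti-PD1, against 27.9% of KO and 35.5% of WT T cells untreated. The anti-PD1 libraries thus stood apart from the untreated ones. They shared 95 barcodes with each other (1.08% of the smaller library), other pairs shared 0 to 3, and no member barcode was shared.

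C1q-high macrophages made up a larger share of monocytes and macrophages in KO in both pairs. Untreated, the share was 22.4% (19.7 to 25.3, exact binomial interval) in KO, 197 of 878 cells, against 13.3% (11.7 to 15.0) in WT, 231 of 1737 cells. After anti-PD1 it was 29.6% (28.3 to 30.9) in KO, 1394 of 4715 cells, against 16% (15.04 to 16.9) in WT, 961 of 6023 cells. The log2 ratios of the shares were 0.75 and 0.89. With a UMI of Ms4a7 also required, the untreated shares were 7.63% in KO and 7.02% in WT, a log2 ratio of 0.12, and the ratio after anti-PD1 was 0.52. With cells thinned to 3000 UMIs before the rule, the shares after anti-PD1 were 41.7% in KO and 31.4% in WT, a log2 ratio of 0.41. All intervals given here cover counting error only.

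Which cap kept cells out differed between libraries. The Ly6c2 cap, set on a gene of classical monocytes, was failed by 9.0% of the cells in KO against 64.2% in WT untreated. After anti-PD1 it was failed by 0.551% in KO against 49.1% in WT. Cells could pass this cap and still carry other monocyte markers. Untreated cells past all caps with under 6 C1q UMIs summed to 7447 CPM (defined below) of monocyte markers in KO and 5461 in WT. Untreated Ly6c2-high monocytes summed to 7738 CPM in KO and 9575 in WT. The shares failing this cap are therefore no count of monocytes. The Arg1 cap was failed by 50.1% in KO against 16.8% in WT untreated, and by 62.2% in KO against 55.0% in WT after anti-PD1. The Retnla cap was failed by 2.05% in KO against 0.0576% in WT untreated, and by 8.95% in KO against 0.0166% in WT after anti-PD1. WT after anti-PD1 was the library in which the Nos2 cap was failed most often, by 35.9%, against 6.21% in KO after anti-PD1. Without any cap, the C1q threshold was reached by 65.4% in KO against 41.3% in WT untreated, and by 88.0% in KO against 78.8% in WT after anti-PD1. The log2 ratio after anti-PD1 was then 0.16.

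**Figure D1:**
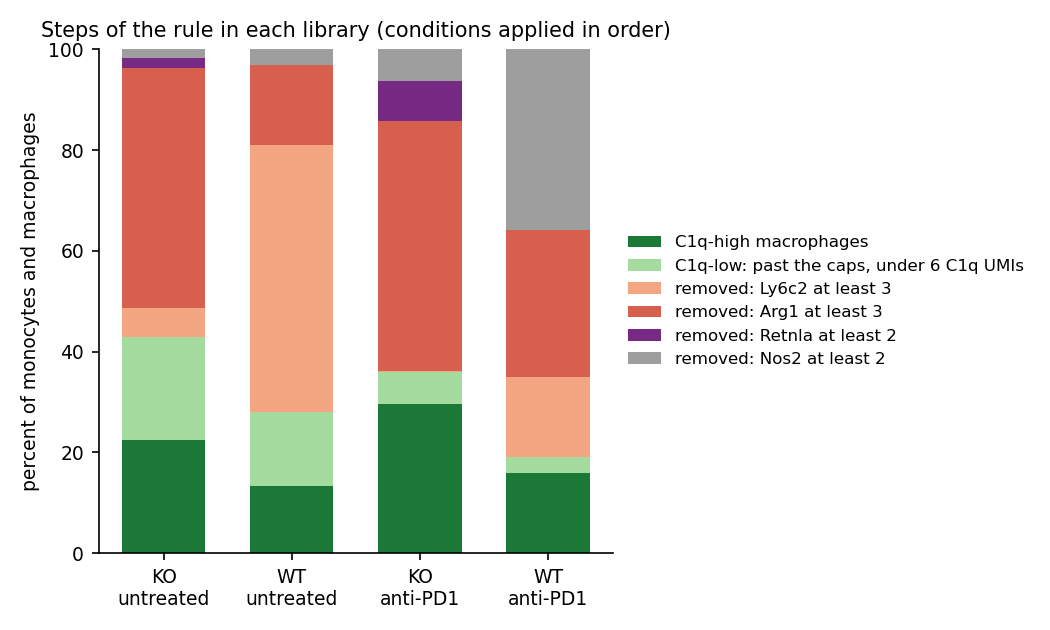
Stacked bars give the percent of monocytes and macrophages (y axis) removed by each condition in each library, with C1q-high macrophages at the base. The base is 22.4% in KO and 13.3% in WT untreated, and 29.6% in KO and 16% in WT after anti-PD1, and the Ly6c2 layer is widest in untreated WT.

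The members carried C1q well above the threshold, but microglia of the same library carried more. Median C1q UMIs per member were 38 in KO and 47 in WT untreated, and 32 in KO and 95 in WT after anti-PD1. Arg1-expressing macrophages had medians of 44.5 in KO and 111 in WT untreated, and 44 in KO and 142 in WT after anti-PD1. Microglia had medians of 188 in KO and 162 in WT untreated, and 84 in KO and 377 in WT after anti-PD1. These medians move with depth, and Arg1-expressing macrophages had more UMIs per cell than members in every library, with 10138 against 6515 in WT after anti-PD1. Scaled to the UMIs of the class (CPM, as defined below), C1qa, C1qb, C1qc and Ms4a7 together reached 5721 CPM in KO members and 9696 in WT members untreated, and 10572 in KO and 20283 in WT members after anti-PD1. In Arg1-expressing macrophages they reached 5766 CPM in KO and 11578 in WT untreated, and 10016 in KO and 17775 in WT after anti-PD1. On this scale the members were above that class in both anti-PD1 libraries and below it in both untreated ones. Microglia were above the members in all 4 libraries, with 18315 CPM in KO and 21179 in WT untreated, and 13472 in KO and 32059 in WT after anti-PD1. Among T cells, 6 or more C1q UMIs were found in 0.168% in KO and 0.157% in WT untreated, and in 2.22% in KO and 4.96% in WT after anti-PD1.

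C1qa stood at 2195 CPM in KO against 3424 in WT untreated, and 3182 in KO against 6861 in WT after anti-PD1, where CPM is UMIs of a gene per 1000000 UMIs of the class. C1qb and C1qc had lower levels in KO as well, with log2 KO/WT ratios of -0.96 and -0.62 untreated and -0.98 and -0.70 after anti-PD1. These genes chose the cells, so the ratios are a description.

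Few cells lay near the threshold in 3 of the libraries, and more in KO after anti-PD1. With 3 to 5 and 6 to 8 C1q UMIs there were 16 and 17 cells in KO and 32 and 18 in WT untreated, and 170 and 145 in KO and 49 and 44 in WT after anti-PD1. Ms4a7, a membrane protein gene of tissue macrophages, stood at 98.8 CPM under and 58.9 over the threshold in untreated KO, and at 97.7 and 189.8 in untreated WT. After anti-PD1 it stood at 208 under and 267 over the threshold in KO, and at 63.4 and 232 in WT. It was higher over the threshold in 3 libraries and lower in untreated KO.

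**Figure D2:**
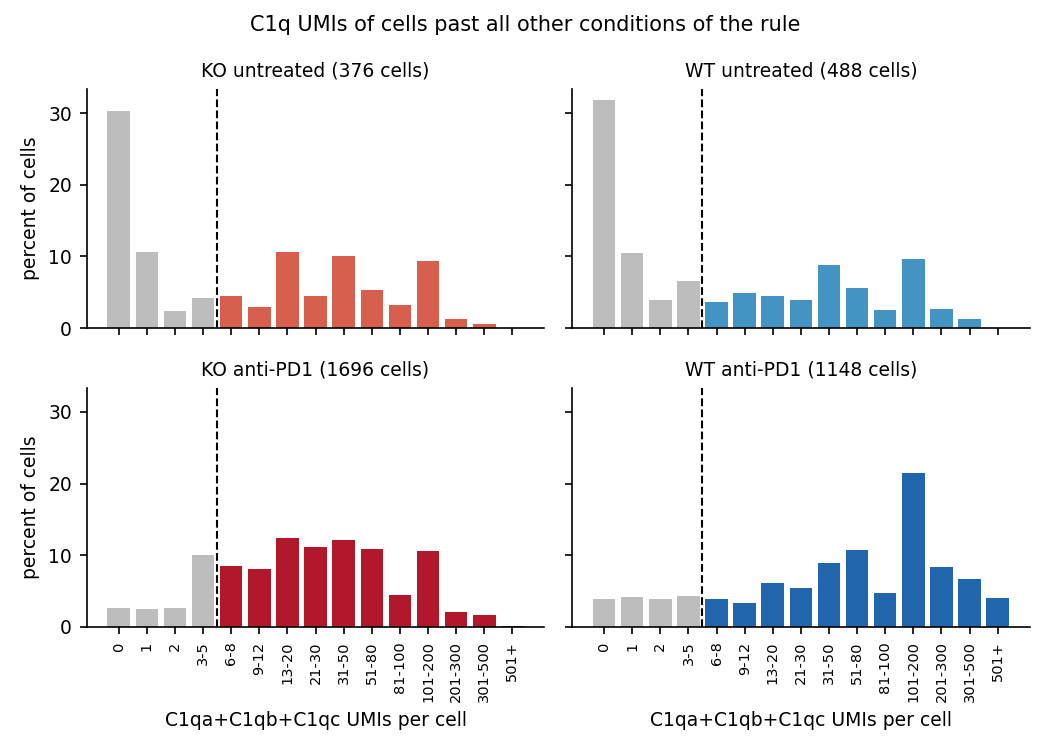
Bars give the percent of cells (y axis) by summed C1q UMIs per cell (x axis, bins of unequal width) among cells past all other conditions, 1 panel per library, and the dashed line is the threshold of 6 UMIs. Coloured bars are C1q-high macrophages, and WT after anti-PD1 reaches the highest counts, with a median of 95 UMIs per member against 32 in KO after anti-PD1.

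Ms4a7 was the marker that the rule did not use, and it was lower in KO in both pairs. It stood at 144 CPM in KO against 315 in WT untreated, and 281 in KO against 500.2 in WT after anti-PD1. That was 2.18-fold lower (1.9 to 2.51) in KO untreated and 1.78-fold lower (1.69 to 1.87) in KO after anti-PD1, with 95% counting intervals in brackets. Thinned to 3000 UMIs, 20.9% (15.1 to 27.8) of KO and 38% (31.2 to 45.1) of WT members untreated had an Ms4a7 UMI, as did 37.6% (34.5 to 40.8) of KO and 56.7% (53.1 to 60.2) of WT members after anti-PD1. Unthinned shares were 34% in KO and 52.8% in WT untreated, and 49.9% in KO and 64.3% in WT after anti-PD1. In T cells the thinned share was at most 5.82%, in KO after anti-PD1. Without the caps the log2 KO/WT ratio after anti-PD1 was 0.21, so its direction there depends on them.

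Of the markers of border-associated macrophages, Cd163 and Lyve1 were near 0 in all 4 libraries, and Folr2 was so except in KO after anti-PD1. Folr2, Cd209f and Siglec1 had no UMI in untreated KO. Mrc1 and Pf4, both described below, stood well above 0 in every library. The levels of the other markers of this list enter only the sums and counts below. Cd163, a haemoglobin scavenger receptor, stood at 1.88 CPM in KO against 4.35 in WT untreated, and 3.37 in KO against 1.77 in WT after anti-PD1. Lyve1, a hyaluronan receptor, stood at 0.941 CPM in KO against 1.09 in WT untreated, and 2.0 in KO against 2.32 in WT after anti-PD1. Folr2, a folate receptor gene, stood at 0 CPM in KO against 3.8 in WT untreated, and 20.1 in KO against 4.23 in WT after anti-PD1. The 12 markers summed to 705 CPM in KO and 528 in WT untreated, and to 683 in KO and 304 in WT after anti-PD1. Untreated, 2 of the 6 compared were at least 2-fold higher in KO and 2 at least 2-fold lower, beside 2.97% and 3.15% of all compared genes, and the median log2 KO/WT ratio was 0.61. After anti-PD1, 4 of 9 were at least 2-fold higher and 1 lower, beside 7.57% and 6.22%, with a median of 0.85. Mrc1, Cd163, Clec10a, Stab1, Folr2 and F13a1 of this list are also in the suppressive and wound-type list below, and the part of border-associated macrophages in it was not tested. Other lineages summed as follows. The 11 T cell markers summed to 22.6 CPM in KO and 66.2 in WT untreated, and to 12 in KO and 8.42 in WT after anti-PD1. The tumour and glial markers summed to 30.5 to 40.7 CPM, and Sox2, Aqp4 and Mog were at 0 in all 4 libraries. Natural killer cell markers summed to 33.9 CPM in KO and 90.7 in WT untreated, and to 4.47 in KO and 2.99 in WT after anti-PD1. Dendritic cell markers include the interferon-stimulated Bst2. They summed to 169.7 CPM in KO and 833 in WT untreated, and to 314 in KO and 1106 in WT after anti-PD1. The genes of this list did not all go with the sum. After anti-PD1, 4 of the 7 compared were at least 2-fold higher in KO and 1 lower, beside 7.57% and 6.22% of all genes. Untreated, all 3 compared were lower in KO and 2 at least 2-fold lower, beside 47.3% and 3.15%. The endothelial and mural list includes the interferon-responsive Ly6a. It summed to 417 CPM in KO and 1122 in WT untreated, and to 237 in KO and 1895 in WT after anti-PD1. Untreated, 2 of its 3 compared genes were higher in KO, beside 52.7% of all genes, and 1 was at least 2-fold lower, beside 3.15%. After anti-PD1, 1 of 3 was higher in KO, beside 56.8%, and 1 was at least 2-fold lower, beside 6.22%.

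Microglial RNA differed between the genotypes after anti-PD1. The 16 microglial markers summed to 946 CPM in KO and 936 in WT untreated, and to 3680 in KO and 2654 in WT after anti-PD1. In T cells the same list summed to 687 CPM in KO and 641 in WT untreated, and to 1715 in KO and 1843 in WT after anti-PD1. The part of free RNA in the member sums was not tested. After anti-PD1, 7 of 12 compared markers were at least 2-fold higher in KO, beside 7.57% of all compared genes. Sparc, a matrix protein gene of microglia, stood at 26.8 CPM in KO against 29.4 in WT untreated, and 174 in KO against 29.7 in WT after anti-PD1. Monocyte markers summed to 2989 CPM in KO and 1772 in WT untreated, and to 709 in KO and 1291 in WT after anti-PD1. The part of either list in the comparisons below was not tested.

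Ccr2, the receptor that draws monocytes out of blood, was lower in the members with most C1q than in those with least. Members with 6 to 8, 9 to 20, 21 to 50, 51 to 100 and over 100 C1q UMIs had 727, 672, 576, 448 and 458 CPM of Ccr2 in untreated KO, and 301, 310.5, 213, 133 and 128 in untreated WT. After anti-PD1 they had 256, 269, 239, 90.6 and 23.6 CPM in KO, and 121, 38.4, 84.7, 78 and 31.7 in WT. The last bin was below the first in each library, but in none did every step fall. Untreated KO rose at the last step, and untreated WT and KO after anti-PD1 rose at the first. In WT after anti-PD1, members with 21 to 100 C1q UMIs had more Ccr2 than those with 9 to 20. Depth moved with it: median UMIs in the first and last bins were 5246 and 16943 in KO and 4705 and 12952 in WT untreated, and 1360.0 and 11954 in KO and 1474 and 9908 in WT after anti-PD1. The part of depth was not tested.

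Promoters of 6 genes described below are shown, picked with their values known. Oas1g, Slfn4 and Ifi44 had no UMI in KO members, Cxcl10 was lower in KO by a smaller factor than many interferon-stimulated genes, and Chil3 and Mrc1 were higher in KO. Each line gives the 250 bases before the gene's start, 5′ to 3′ on the gene's strand, from RefSeq on GRCm38.p6. Capitals mark matches on either strand to GAAA, any 2 bases, then GAAA, a core of the interferon-stimulated response element.
Oas1g, chr5:120887614-120887863, minus strand: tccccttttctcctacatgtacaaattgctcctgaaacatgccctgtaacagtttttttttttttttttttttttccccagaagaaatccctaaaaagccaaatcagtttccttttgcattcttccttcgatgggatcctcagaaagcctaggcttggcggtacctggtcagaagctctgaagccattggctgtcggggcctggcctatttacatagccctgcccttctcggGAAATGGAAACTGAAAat
Cxcl10, chr5:92348890-92349139, minus strand: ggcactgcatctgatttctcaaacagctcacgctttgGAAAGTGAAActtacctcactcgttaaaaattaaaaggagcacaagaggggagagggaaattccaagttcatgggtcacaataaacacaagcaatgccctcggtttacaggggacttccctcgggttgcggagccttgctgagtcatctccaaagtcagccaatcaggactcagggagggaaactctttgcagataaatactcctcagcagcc
Slfn4, chr11:83174936-83175185, plus strand: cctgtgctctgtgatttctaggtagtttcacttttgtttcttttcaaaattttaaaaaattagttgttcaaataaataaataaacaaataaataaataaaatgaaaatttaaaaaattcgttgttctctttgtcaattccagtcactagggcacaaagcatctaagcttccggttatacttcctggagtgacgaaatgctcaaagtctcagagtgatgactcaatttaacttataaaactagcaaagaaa
Ifi44, chr3:151749911-151750160, minus strand: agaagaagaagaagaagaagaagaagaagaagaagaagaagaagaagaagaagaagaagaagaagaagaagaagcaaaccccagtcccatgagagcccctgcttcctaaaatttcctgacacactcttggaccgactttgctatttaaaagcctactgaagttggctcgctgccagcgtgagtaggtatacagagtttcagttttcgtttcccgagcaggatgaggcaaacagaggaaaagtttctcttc
Chil3, chr3:106167565-106167814, minus strand: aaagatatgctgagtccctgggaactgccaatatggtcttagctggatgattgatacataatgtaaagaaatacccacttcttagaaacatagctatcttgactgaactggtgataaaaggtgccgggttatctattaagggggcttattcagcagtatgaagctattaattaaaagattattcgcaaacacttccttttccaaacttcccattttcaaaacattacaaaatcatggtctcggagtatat
Mrc1, chr2:14229164-14229413, plus strand: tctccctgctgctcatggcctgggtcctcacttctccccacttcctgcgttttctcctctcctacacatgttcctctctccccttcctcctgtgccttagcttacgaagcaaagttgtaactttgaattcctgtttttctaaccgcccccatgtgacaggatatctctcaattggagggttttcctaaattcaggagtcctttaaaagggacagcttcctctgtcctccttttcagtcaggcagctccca
The Oas1g window held 2 overlapping matches and the Cxcl10 window held 1, and the other 4 windows did not hold these letters. Only exact matches with 2 bases between were searched. Response elements of other spacing or with a changed base were not counted, so a window without capitals may still hold one. Among compared interferon-stimulated genes, 24 of 65 promoters held the motif (36.9%), and 978 of all 32851 promoters of that length did (2.98%). Genes linked to interferon gamma, which were lower in KO by less, had it in 9 of 22 promoters (40.9%). MHC class I genes had it in 3 of 21 (14.3%), suppressive and wound-type genes in 2 of 22 (9.09%) and complement genes in 0 of 13. The motif was in 28 of 91 promoters (30.8%) of genes at least 2-fold lower in KO in both pairs, and in 1 of 49 (2.04%) of those at least 2-fold higher. Both of these sets were picked by the ratios themselves.

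Interferon-stimulated genes were lower in KO members in both pairs. Untreated, 61 of 64 genes were lower in KO and 48 at least 2-fold lower, where 47.3% of all 7102 compared genes (at least 50 UMIs in the pair) were lower and 3.15% at least 2-fold lower. After anti-PD1, 65 of 65 were lower and 62 at least 2-fold lower, where 43.2% of all 9745 compared genes were lower and 6.22% at least 2-fold lower. The median log2 KO/WT ratio was -2.00 untreated and -2.43 after anti-PD1, beside 0.03 and 0.10 over all compared genes. The balance of all genes after anti-PD1 turned with the scaling: 738 were at least 2-fold higher and 606 lower by CPM, 672 and 678 with DESeq2 size factors, and 560 and 814 with TMM factors. The 3 and 4 genes with no UMI in KO lay below the medians also at their bound. Setting them there could not move either median, so it is no check of them. The list was low in KO in neighbouring classes too, with medians of -1.74 and -2.34 in Arg1-expressing macrophages and -2.05 and -2.73 in microglia.

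Isg15, a ubiquitin-like modifier, stood at 167 CPM in KO against 954 in WT untreated, and 46.2 in KO against 749 in WT after anti-PD1. Slfn4, a Schlafen gene of myeloid cells with close copies, had no UMI in either KO library and stood at 91.9 CPM in WT untreated and 10.6 in WT after anti-PD1. Against a floor of 3 UMIs per library it was at least 65.1-fold lower in KO untreated and at least 28.4-fold lower after anti-PD1. Ifi44 also had no UMI in either KO library, at least 30.0-fold and at least 50.7-fold lower. Oas1g, an oligoadenylate synthetase gene whose near-identical copies make its count uncertain, had none either, at least 21.2-fold and at least 73.6-fold lower.

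Of the genes outside the lists, those that led the lower side were Ifi206, Samd9l, Helz2, Rnf213, Ifitm6 and Ifi27. Rnf213, a large ubiquitin ligase, stood at 40.9 CPM in KO against 205 in WT untreated, and 56.4 in KO against 271 in WT after anti-PD1. Helz2, a helicase, stood at 7.53 CPM in KO against 54.9 in WT untreated, and 1.12 in KO against 25 in WT after anti-PD1. The receptor genes were read in KO too, which does not check the genotype while the deleted part is unknown. Ifnar1 stood at 143 CPM in KO against 133 in WT untreated, and 164 in KO against 84.7 in WT after anti-PD1, and Ifnar2 at 82.8 CPM in KO against 124 in WT untreated, and 232 in KO against 299.6 in WT after anti-PD1.

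**Figure D3:**
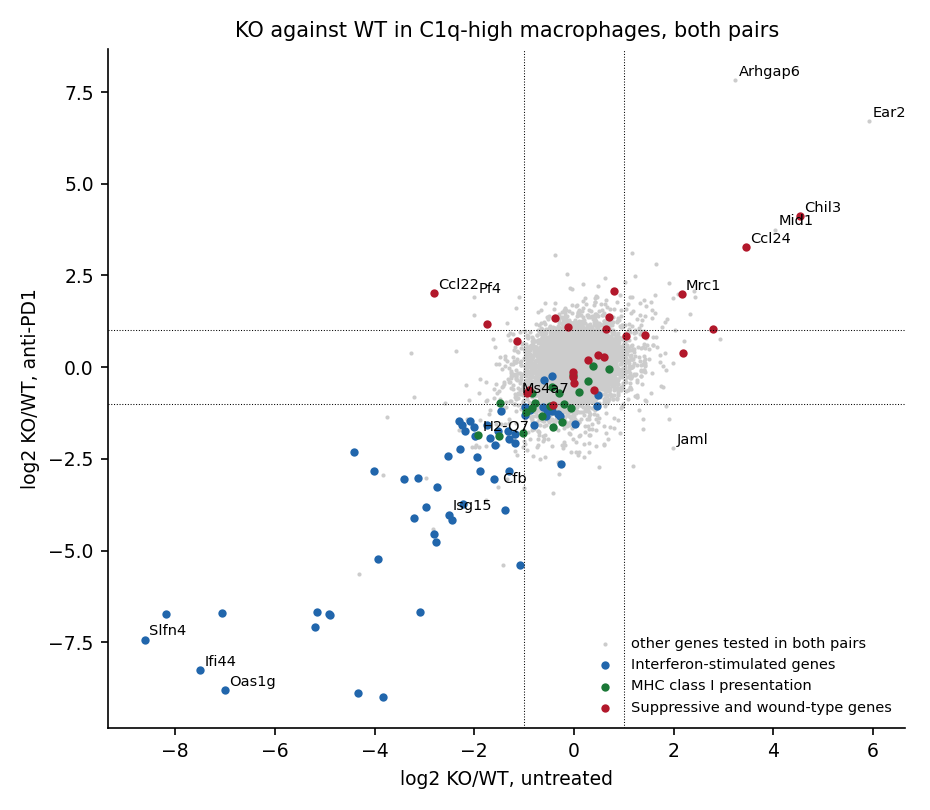
Each point is a gene compared in both pairs, with its log2 KO/WT ratio untreated (x axis) and after anti-PD1 (y axis), and dotted lines mark 2-fold. Interferon-stimulated genes extend to the lower left, with medians of -2.00 and -2.43, and the place of a gene with no UMI in KO depends on the pseudocount of 0.5.

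Genes linked to interferon gamma were lower in KO by less. Untreated, 19 of 25 were lower, with a median of -0.47, and after anti-PD1 26 of 26 were, with a median of -1.26. Of all compared genes, 47.3% were lower in KO untreated and 43.2% after anti-PD1. Medians of this list were -0.47 and -1.13 in Arg1-expressing macrophages and -0.39 and -1.63 in microglia. Cxcl10, a chemokine that attracts activated T cells, stood at 292 CPM in KO against 759.8 in WT untreated, and 201 in KO against 586 in WT after anti-PD1. It was 2.6-fold lower (2.36 to 2.86) in KO untreated and 2.91-fold lower (2.75 to 3.09) after anti-PD1. Socs1, a feedback inhibitor of cytokine signalling, stood at 53.2 CPM in KO against 117 in WT untreated, and 13.2 in KO against 69.1 in WT after anti-PD1. Cd274, which encodes the PD-1 ligand PD-L1, stood at 168 CPM in KO against 242 in WT untreated, and 216 in KO against 369 in WT after anti-PD1.

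MHC class I genes were lower in KO in both pairs, 17 of 21 untreated and 21 of 22 after anti-PD1, beside 47.3% and 43.2% of all compared genes, with medians of -0.44 and -1.03. This list was low in KO in neighbouring classes too, with medians of -0.62 and -1.04 in Arg1-expressing macrophages and -0.73 and -1.36 in microglia. H2-Q7, a class Ib gene of a family with near-identical copies and so an uncertain count, stood at 134 CPM in KO against 509.8 in WT untreated, and 177 in KO against 633 in WT after anti-PD1. MHC class II genes had medians of 0.07 untreated and -0.68 after anti-PD1, and over 17 settings the first ran from -0.03 to 0.12. Class II medians were 0.30 and -0.70 in Arg1-expressing macrophages and 0.16 and -1.03 in microglia. H2-Aa, a class II alpha chain, stood at 7065 CPM in KO against 6837 in WT untreated, and 5897 in KO against 11369 in WT after anti-PD1. Its log2 ratio was 0.05 untreated and -0.95 after anti-PD1.

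Complement genes other than C1q had medians of 0.24 untreated and -0.26 after anti-PD1, with 10 of 15 higher in KO untreated and 13 of 17 lower in KO after anti-PD1, beside 52.7% of all compared genes higher untreated and 43.2% lower after anti-PD1. Over 17 settings the untreated median ran from -0.11 to 0.43 and so changed sign. Cfb, factor B of the alternative pathway, stood at 26.4 CPM in KO against 76.1 in WT untreated, and 37.9 in KO against 363 in WT after anti-PD1. It was 2.89-fold lower (2.1 to 4.01) and 9.58-fold lower (8.5 to 10.8) in KO. C3, the central component, stood at 277 CPM in KO against 386 in WT untreated, and 294 in KO against 375 in WT after anti-PD1. Cfp, properdin, which stabilises the alternative pathway convertase, stood at 142 CPM in KO against 179.9 in WT untreated, and 73.2 in KO against 157 in WT after anti-PD1. The receptor genes C3ar1 and C5ar1 had log2 ratios of -0.47 and 0.28 untreated, and -0.01 and -0.05 after anti-PD1.

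Several suppressive and wound-type genes were higher in KO. Untreated, 7 of 25 were at least 2-fold higher, beside 2.97% of all compared genes, and 14 of 25 were higher by any amount, beside 52.7%. After anti-PD1, 12 of 27 were at least 2-fold higher, beside 7.57%, and 19 of 27 higher by any amount, beside 56.8%. The medians were 0.39 and 0.85. Those of neighbouring classes were 0.36 and 0.27 in Arg1-expressing macrophages and 0.84 and 0.45 in microglia.

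Chil3, a chitinase-like secreted protein, stood at 588 CPM in KO against 25 in WT untreated, and 48.2 in KO against 2.73 in WT after anti-PD1. It was 23.5-fold higher (17.5 to 32.3) and 17.7-fold higher (11.3 to 29.2) in KO. Ccl24, a chemokine for eosinophils, stood at 2528 CPM in KO against 232 in WT untreated, and 386 in KO against 40.1 in WT after anti-PD1. It was 10.9-fold higher (9.87 to 12) and 9.64-fold higher (8.55 to 10.9) in KO. Mrc1, the mannose receptor, stood at 386 CPM in KO against 85.9 in WT untreated, and 213 in KO against 53 in WT after anti-PD1. It was 4.5-fold higher (3.79 to 5.37) and 4.01-fold higher (3.59 to 4.49) in KO. These 3 were named for having the same direction in both pairs, and 11 of 25 genes of the list were lower in KO untreated and 8 of 27 after anti-PD1.

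Free RNA and the neighbouring class moved with these genes. A Ccl24 UMI was found, after thinning, in 57% (49.2 to 64.5) of KO and 8.0% (4.64 to 12.7) of WT members untreated, and in 24.9% (22.2 to 27.8) of KO and 2.06% (1.18 to 3.33) of WT members after anti-PD1. In T cells it was found in 3.68% in KO and 0.497% in WT untreated, and in 14.2% in KO and 0.33% in WT after anti-PD1. Members were above T cells in every library. For Mrc1 the member shares were 49.4% (41.7 to 57.1) in KO and 16% (11.2 to 21.8) in WT untreated, and 31.1% (28.1 to 34.2) in KO and 10.8% (8.73 to 13.2) in WT after anti-PD1, while no T cell share passed 3.64%. Arg1-expressing macrophages, which the Arg1 cap keeps apart, had 6571 CPM of Ccl24 in KO and 1344 in WT untreated, and 2373 in KO and 137 in WT after anti-PD1. The part of free RNA in the Ccl24 ratio was not tested.

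Ccr2 was higher in KO in both pairs. It stood at 534 CPM in KO against 174 in WT untreated, and 124 in KO against 44.7 in WT after anti-PD1. It was 3.07-fold higher (2.71 to 3.49) and 2.78-fold higher (2.45 to 3.16) in KO. After thinning, 60.5% (52.7 to 67.8) of KO and 32% (25.6 to 38.9) of WT members untreated had a UMI, as did 21.5% (18.9 to 24.3) of KO and 12.1% (9.9 to 14.6) of WT members after anti-PD1. In T cells, which also carry Ccr2, the shares were 14.9% in KO and 18.8% in WT untreated, and 18.5% in KO and 13.9% in WT after anti-PD1. Ly6c2, which the rule caps, stood at 12.7 CPM in KO against 66.3 in WT untreated, and 3.87 in KO against 46.8 in WT after anti-PD1, and so was lower in KO.

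**Figure D4:**
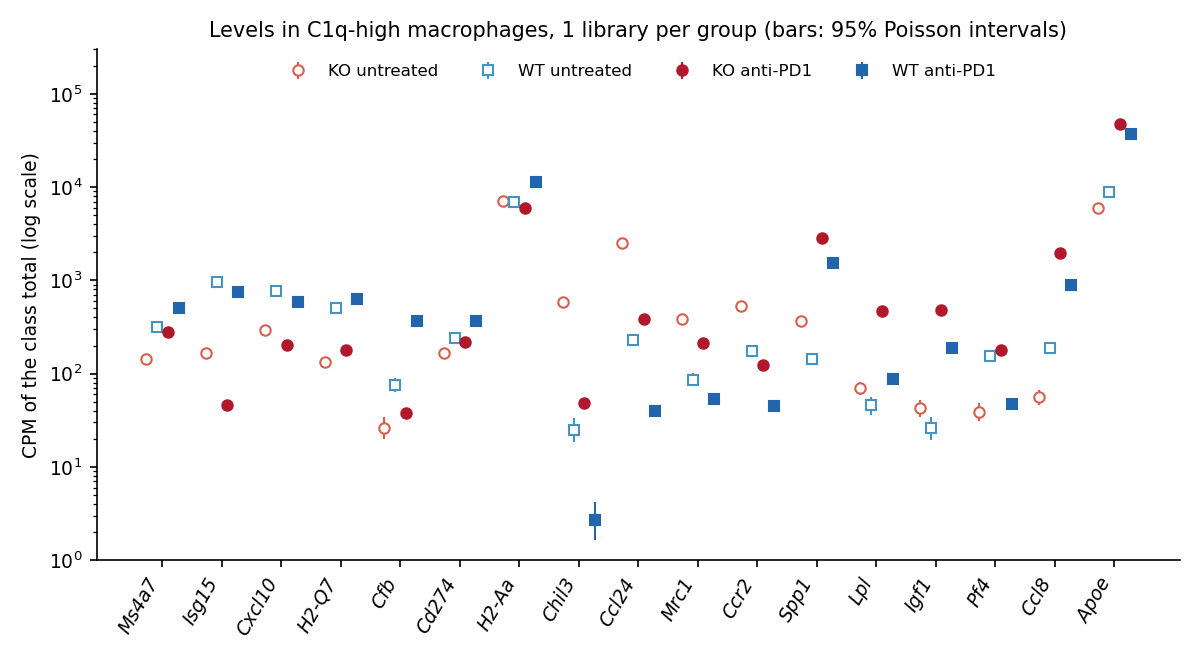
Points give CPM of the class total (y axis, log scale) for 17 genes in C1q-high macrophages, with 95% Poisson intervals that cover counting error only. Circles are KO and squares WT, open symbols are untreated and filled symbols anti-PD1. Chil3, Ccl24, Mrc1 and Ccr2 are higher in KO in both pairs, and Ms4a7, Isg15, Cxcl10, H2-Q7 and Cfb lower.

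Chemokine genes had a median of -0.46 untreated and 0.96 after anti-PD1, and the second value ranged from -0.43 to 1.18 over 17 settings. Ccl5, a T cell attractant, stood at 252 CPM in KO against 986 in WT untreated, and 741 in KO against 3233 in WT after anti-PD1. Ccl8, a mouse CCR8 ligand, stood at 56 CPM in KO against 189 in WT untreated, and 1984 in KO against 886 in WT after anti-PD1. Ccl5 was lower in KO in both pairs, while Ccl8 was lower in KO untreated and higher in KO after anti-PD1.

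Lipid-handling and disease-associated genes were higher in KO for 10 of 23 untreated and 22 of 28 after anti-PD1, with medians of -0.08 and 0.49, beside 52.7% and 56.8% of all compared genes higher. Over 17 settings the first ran from -0.44 to 0.27 and the second from 0.33 to 0.69. Spp1, which encodes osteopontin, stood at 365 CPM in KO against 145 in WT untreated, and 2834 in KO against 1525 in WT after anti-PD1. Lpl, lipoprotein lipase, stood at 70.1 CPM in KO against 45.7 in WT untreated, and 471 in KO against 87.8 in WT after anti-PD1. Igf1, a growth factor of macrophages and microglia, stood at 42.8 CPM in KO against 26.1 in WT untreated, and 478 in KO against 187 in WT after anti-PD1. These 3 were named for having the same direction in both pairs, which was not that of the list untreated, where 13 of 23 genes were lower in KO. Apoe, which encodes apolipoprotein E, stood at 6030.0 CPM in KO against 8829 in WT untreated, and 47597 in KO against 36713 in WT after anti-PD1, with log2 ratios of -0.55 and 0.37. Trem2, a lipid-sensing receptor, had log2 ratios of -0.57 untreated and 0.23 after anti-PD1, and Gpnmb, a glycoprotein gene of lipid-laden macrophages, -1.34 and 0.17.

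Genes for the uptake of dying cells, a process that C1q promotes, had medians of 0.29 and 0.53. Untreated, 14 of 20 were higher in KO and 6 lower, beside 52.7% of all compared genes higher. After anti-PD1, 17 of 23 were higher and 6 lower, beside 56.8% higher. Pros1 and Lrp1 were named for having the same direction in both pairs. Pros1, which bridges phosphatidylserine to TAM receptors, stood at 24 CPM in KO against 11.4 in WT untreated, and 98.3 in KO against 33 in WT after anti-PD1. Lrp1, a large uptake receptor, stood at 251 CPM in KO against 153 in WT untreated, and 321 in KO against 212 in WT after anti-PD1. After anti-PD1, log2 ratios over all genes also differed by intron length, with a median of -0.22 in the shortest and 0.45 in the longest of 10 bins, and its part in these 2 groups was not tested.

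**Figure D5:**
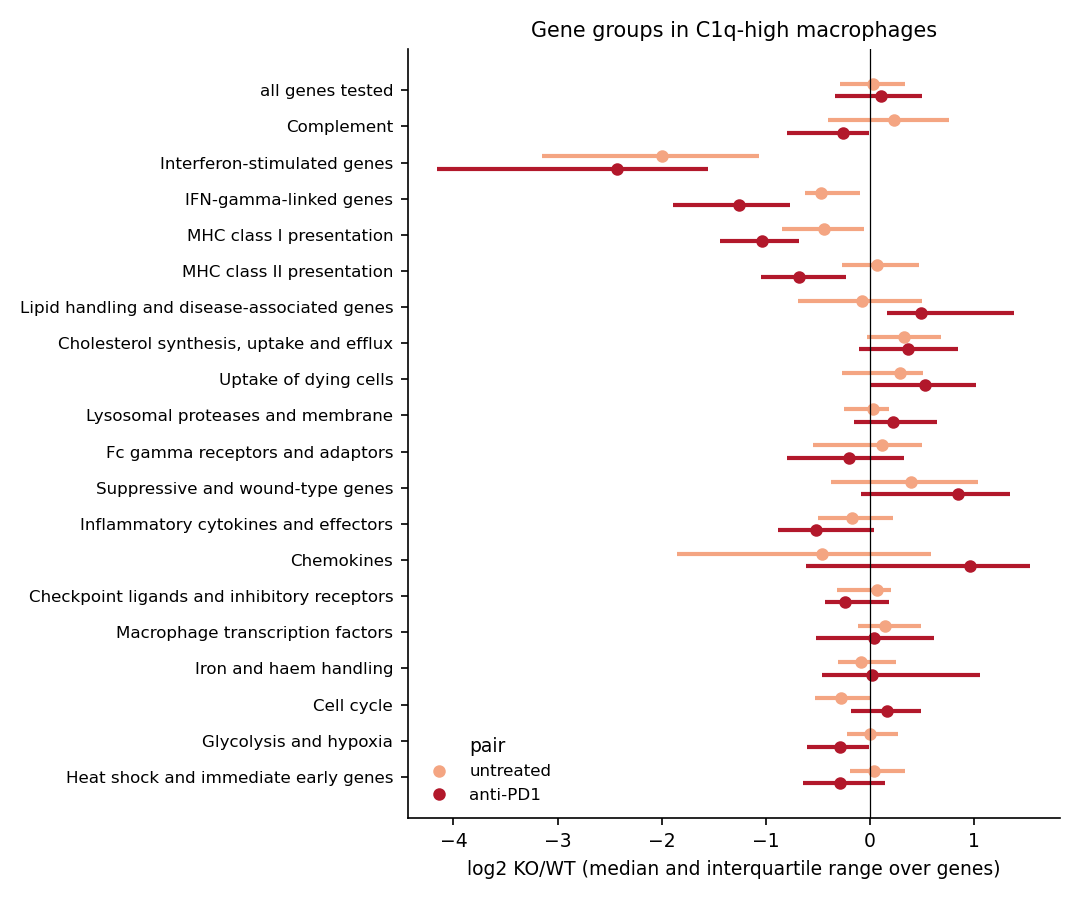
Points are the median log2 KO/WT ratio (x axis) and lines the interquartile range over the genes of each group, untreated and after anti-PD1. Interferon-stimulated genes lie farthest left, with medians of -2.00 and -2.43, and all compared genes have medians of 0.03 and 0.10.

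Outside the lists, 6 genes led the higher side in KO. Mid1 (chromosome X, 169685199 to 170005736) and Arhgap6 (chromosome X, 168795099 to 169304435) lie close together on GRCm38. Mid1 stood at 412 CPM in KO against 25 in WT untreated, and 204 in KO against 15.1 in WT after anti-PD1. In T cells it stood at 435 CPM in KO against 8.75 in WT untreated, and 183 in KO against 2.56 in WT after anti-PD1. Arhgap6 stood at 27.8 CPM in KO against 2.72 in WT untreated, and 726 in KO against 3.14 in WT after anti-PD1, and in T cells at 65.1 CPM in KO against 0.367 in WT untreated, and 1038 in KO against 0.511 in WT after anti-PD1. Neither difference was particular to the macrophages. Ear2, a ribonuclease gene with near-identical copies and so an uncertain count, was 67.7-fold higher (26.2 to 250.2) and 122-fold higher (41.5 to 595) in KO, on 4 and 3 UMIs in WT. Mt2, a metallothionein gene, stood at 38.6 CPM in KO against 7.07 in WT untreated, and 53.4 in KO against 12.7 in WT after anti-PD1. Igf1r and Tns1 were also among the 6, with log2 ratios of 2.08 and 2.43 untreated.

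C1q-high macrophages were also set against other classes of the same library. In every library compared, 5 genes were at least 2-fold higher and 8 lower than in Arg1-expressing macrophages (of 6362 compared), 40 higher and 44 lower than in Ly6c2-high monocytes (of 5980, in 3 libraries, as KO after anti-PD1 had 5 such cells), and 195 higher and 267 lower than in microglia (of 7630). The classes were cut on marker UMIs, so these counts are a description. Fn1, the fibronectin gene, was lower than in Arg1-expressing macrophages, with log2 ratios of -1.65 in KO and -1.46 in WT untreated, and -1.93 in KO and -1.26 in WT after anti-PD1. Tmem176b, a membrane protein gene, was higher there, with 1.02 in KO and 1.84 in WT untreated, and 1.29 in KO and 2.18 in WT after anti-PD1. Plac8, a monocyte gene, was lower than in Ly6c2-high monocytes, with -2.12 in KO and -2.62 in WT untreated and -2.94 in WT after anti-PD1.

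Anti-PD1 against untreated cannot be told apart from day, sort mix, software version and library. In KO members 13.8% of 9102 compared genes were at least 2-fold higher and 13.5% lower after anti-PD1, with 41.5% higher and 58.5% lower by any amount. In WT members 7.68% of 8815 were at least 2-fold higher and 12.4% lower, with 40.3% and 59.7% by any amount. The balance turned with the scaling: by CPM 1259 genes were at least 2-fold higher and 1232 lower in KO and 677 and 1091 in WT, whereas TMM factors gave 1655 and 747 in KO and 1253 and 487 in WT, and DESeq2 size factors 1557 and 824 in KO and 1018 and 639 in WT. The leading genes were alike in T cells. Cmss1 stood at 957 CPM in KO members after anti-PD1 against 5.18 untreated, and at 4526 in WT members after anti-PD1 against 9.78 untreated. In T cells it stood at 1278 in KO after anti-PD1 against 14.7 untreated, and at 5171 in WT after anti-PD1 against 12.8 untreated. Hspa1b, a heat shock protein gene, stood at 106 CPM in KO members after anti-PD1 against 3324 untreated, and at 54 in WT members after anti-PD1 against 2704 untreated. Its T cell levels were 215 in KO after anti-PD1 against 2795 untreated, and 129 in WT after anti-PD1 against 2641 untreated.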

How the data were processed

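The authors deposited raw UMI counts per gene and barcode, made with Cell Ranger 3.1.0 for the untreated and 7.2.0 for the anti-PD1 libraries, per the file headers. The builds were mm10 and GRCm38, per the submitters' processing notes. How intronic reads were counted is not given in the sources used here. The 30406 genes found in all libraries were used. Members and gene lists were chosen with earlier results of these data known.

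Arg1-expressing macrophages had at least 3 Arg1 and under 3 Ly6c2 UMIs, Ly6c2-high monocytes the reverse, microglia at least 5 UMIs of P2ry12, Tmem119 and Sall1, and T cells at least 3 of Cd3d, Cd3e and Cd3g with at most 1 of Lyz2, Csf1r and Cd68. For each library, the UMIs of a class were added up and expressed as CPM. Log2 ratios had 0.5 UMIs added. A gene needed 50 UMIs in a pair, and 2-fold was the call. With 1 library per group there was no test of genes. Intervals (95%) were exact Poisson for levels, conditional binomial for ratios and Clopper-Pearson for shares. Shallower cells were left out when thinning, 25 in KO and 31 in WT members untreated and 455 in KO and 185 in WT members after anti-PD1. Doublets were kept; Scrublet scores served an alternative. Named genes were the rule's genes, the complement list, up to 3 genes per group with the same direction in both pairs, the 6 leading genes each way outside the lists, 4 each way for anti-PD1, 3 each way with opposite directions, 5 each way per class contrast and a set for shares of cells; Ifnar1 and Ifnar2 were added. Software was Python 3.11.15 with scanpy 1.11.5, and R 4.3.3 with edgeR 4.0.16 and DESeq2 1.42.0 for scaling factors alone. The calculation of the ratios was tried on simulated counts with known fold changes. Those counts held counting error only, so they do not check differences between animals or libraries. The setting without caps was chosen after seeing the data.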

Additional observations from a re-analysis of the deposited data

Results flagged for a closer look

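For 6 genes the KO library lay on one side of WT untreated and on the other side after anti-PD1. This contrast of the 2 pairs was not tested, since each group had 1 library. Pf4, a chemokine of platelets and some macrophages, had log2 KO/WT ratios of -2.00 untreated and 1.91 after anti-PD1. Ccl22, a CCR4 ligand, had -2.80 and 2.02. Tanc2, a scaffold protein gene, had -2.00 and 1.42. Jaml, an adhesion molecule of leukocytes, had 1.99 untreated and -2.20 after anti-PD1. Hic1, a transcriptional repressor, had 1.39 and -1.40. Aldoc, a glycolytic aldolase, had 1.91 and -1.41. Pf4 stood at 38.6 CPM in KO against 155 in WT untreated, and 179.5 in KO against 47.6 in WT after anti-PD1. Of 7049 genes compared in both pairs, 7 were at least 2-fold higher in KO untreated and at least 2-fold lower after anti-PD1, and 7 the other way round.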

How the results depend on the processing

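No paired analysis was possible because each group had 1 library and the labels give no shared replicate number. The log2 KO/WT ratio of the shares after anti-PD1, 0.89, was 0.71 with at least 12 C1q UMIs, 0.77 with no UMI of P2ry12, Tmem119 or Sall1, 0.70 over all cells past the filter, 0.52 with an Ms4a7 UMI required, 0.64 with at most 1 UMI of 5 further microglial genes, 0.41 after thinning before the rule and 0.16 without caps. Untreated it was 0.75, and 0.12 with an Ms4a7 UMI required. Counts of genes at least 2-fold higher and lower in KO were 211 and 224 untreated and 738 and 606 after anti-PD1, and those after anti-PD1 were 560 and 814 with TMM and 672 and 678 with DESeq2 size factors. With at least 10 UMIs they were 512 and 680, and 1318 and 934; with no minimum 1695 and 2233, and 3323 and 2269. Without caps they were 321 and 357 untreated, with 1318 higher after anti-PD1, and thinning gave 1173 higher there. For anti-PD1 against untreated, higher and lower, KO had 1990 and 1922 and WT 1143 and 1915 with at least 10 UMIs, and KO 2636 and 3283 and WT 1628 and 3586 with no minimum. WT had 1762 lower without caps, 1253 and 487 with TMM factors and 1018 and 639 with DESeq2 size factors. KO had 1655 and 747 with TMM factors, 1557 and 824 with DESeq2 size factors, and 811 lower with at most 1 UMI of the further microglial genes. TMM shifted every log2 ratio by -0.13 for KO/WT after anti-PD1, and by 0.26 in KO and 0.38 in WT for anti-PD1 against untreated. Tanc2 in the untreated pair was 0.019 after thinning before the rule, the reverse direction; the cause was not tested. The interferon-stimulated median ranged from -2.25 to -1.66 untreated and from -2.60 to -2.22 after anti-PD1 over 17 settings. Of 191 KO/WT values of named genes, 21 changed sign under some setting. Of 180 other values of the main results, 145 kept within the set limits and 35 did not. Depth, pooled animals and single libraries limit all comparisons.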

Other observations

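Iron and haem genes had a median log2 KO/WT ratio of -0.08 untreated and 0.02 after anti-PD1, values that changed sign over 17 settings (-0.25 to 0.20 and -0.14 to 0.49), and Trf, which encodes transferrin, stood at 120.5 CPM in KO against 77.7 in WT untreated, and 806 in KO against 417 in WT after anti-PD1. Cholesterol genes had medians of 0.32 and 0.36, and Idi1, an isomerase of the sterol pathway, stood at 56.9 CPM in KO against 21.2 in WT untreated, and 8.86 in KO against 4.91 in WT after anti-PD1. Nr1h3, the oxysterol receptor LXR alpha, was lower in KO in both pairs, with log2 ratios of -1.10 and -0.72. Glycolysis and hypoxia genes had medians of 0.00 and -0.28, and Vegfa, an angiogenic growth factor, stood at 136 CPM in KO against 253 in WT untreated, and 253 in KO against 394 in WT after anti-PD1.

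Few members carried the mitotic gene Top2a. After thinning, it was found in 1.16% (0.141 to 4.14) of KO and 4.0% (1.74 to 7.73) of WT members untreated, and in 2.66% (1.73 to 3.91) of KO and 2.71% (1.68 to 4.11) of WT members after anti-PD1. In T cells it was found in 28.7% in KO and 21.6% in WT untreated, and in 16.7% in KO and 12.2% in WT after anti-PD1.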
